A study of Homo sapiens with 12 samples.

Results

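Farage and SU-DHL-8, both established human lines of diffuse large B cell lymphoma, were compared with each other before any drug. The comparison rests on 6 of the 12 libraries in the series, namely the 3 controls of each line, and leaves out the 6 libraries made after morusinol, a plant flavonoid. The controls of both lines are labelled WT in genotype and lymph node in tissue, received a vehicle that the labels do not name, and were taken at 12 h. Each line descends from 1 tumour, so every difference below is one between 2 cell lines and not between classes of lymphoma. The labels do not say whether replicates were separate cultures, and the p-values measure only the spread between these libraries.

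A B cell that meets antigen enters a germinal centre, where BCL6 holds a programme of rapid division and the immunoglobulin genes are mutated and switched. CD40 and the B cell receptor then signal through NF-kappaB, and the cell leaves as a memory or plasma cell under IRF4, PRDM1 and XBP1. Far earlier, precursors in the bone marrow cut and join antigen receptor genes with RAG1 and RAG2 and test the new heavy chain with a surrogate light chain made of VPREB1 and IGLL1, genes that mature B cells normally keep silent. Diffuse large B cell lymphoma arises from mature B cells, and its lines keep parts of these programmes. Farage is known to carry the Epstein-Barr virus, which drives B cells through viral mimics of CD40 and of the B cell receptor. All 61466 identifiers in the table are human, so viral RNA was not measured.

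The values are FPKM, fragment numbers scaled by gene length and library depth, on which levels of different genes can be compared per length. Differences are in log2(FPKM + 1), Farage minus SU-DHL-8, fitted with limma over the 15385 genes that reached 1 FPKM in at least 3 of the 6 libraries. A gene is called when its Benjamini-Hochberg adjusted p is under 0.05. The finest step of the values put the depth at about 28.4 to 30.4 M (mega) fragments for each SU-DHL-8 library and 33.2 to 37.9 M for each Farage library. Only 37.8% to 43.8% of low values fell on whole steps, so these are estimates, and counting in fractions of a fragment would make the true depth lower. Of all FPKM, the signal recognition particle RNA RN7SL1 held 25.1% to 28.7% in SU-DHL-8 and 19.9% to 20.8% in Farage. Across genes, log2 values correlated with r of 0.978 to 0.981 between libraries of a line and 0.751 to 0.772 between lines.

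The 2 lines differed in most of what they expressed. Of the 15385 genes, 10590 (68.8%) were called, 5611 (36.5%) higher in Farage and 4979 (32.4%) lower. At least a 2-fold difference was also reached by 4138 (26.9%), of which 2711 (17.6% of all tested) were higher and 1427 (9.28%) lower in Farage. The median difference was 0.07 and the median size 0.54. Genes present in 1 line only pass the filter through that line and then differ by construction, so counts are also given for the 11468 genes with a mean of at least 1 FPKM in both lines. Among these, 16% differed by at least 2-fold, 8.27% higher and 7.75% lower in Farage, with a median of -0.04. A share of a gene list near these figures says nothing about that list.

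**Figure D1:**
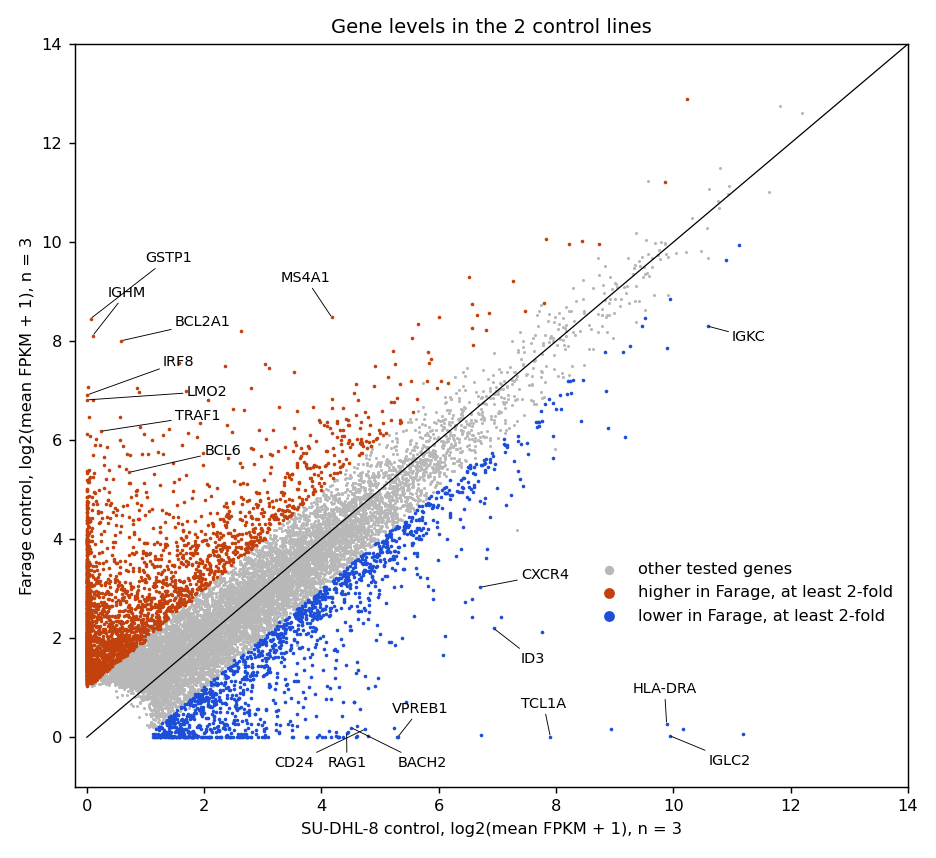
Each point is a tested gene, with log2(mean FPKM + 1) of the 3 SU-DHL-8 control libraries on the x axis and of the 3 Farage control libraries on the y axis; orange and blue points were called and differed by at least 2-fold, and the line marks equal levels. GSTP1, IGHM, BCL2A1 and IRF8 lie along the left edge, near 0 in SU-DHL-8, and HLA-DRA, IGLC2 and TCL1A along the bottom, near 0 in Farage.

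Both lines were B cells by their markers. The 6 B lymphocyte markers summed to 966 to 1021 FPKM in the Farage libraries and 354 to 368 in the SU-DHL-8 libraries, and each of the 6 was present in both. PAX5, the factor that fixes B cell identity, was close in the 2 lines, at 49.3, 46.7 and 44.6 FPKM in Farage and 37.4, 38.4 and 43.5 in SU-DHL-8. No fibroblast, endothelial or epithelial marker of 13 reached a mean of 0.4 FPKM in either line, and the highest of 12 myeloid markers was LYZ at 1.36 FPKM in SU-DHL-8. Of 18 T and NK cell markers, TRAC, the T cell receptor alpha constant region, was at 75.7, 66.4 and 68 FPKM in Farage and 2.08, 2.7 and 2.11 in SU-DHL-8. TRBC2 was at 11.8 FPKM in Farage and 13.8 in SU-DHL-8 and the pore-forming protein gene PRF1 at 4.04 and 0, while CD3D, CD3E and CD3G, without which no T cell receptor reaches the surface, had means of at most 0.022 FPKM.

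The germinal centre programme was split between the lines. BCL6, its central repressor, was present in Farage at 41.2, 41.3 and 36.8 FPKM and scarce in SU-DHL-8 at 0.68, 0.712 and 0.564 (log2 difference 4.63 ± 0.0663, adjusted p = 4.8e-08). LMO2, a LIM domain adaptor of the same stage, was at 114, 109.7 and 110.4 FPKM in Farage and at 0, 0 and 0.0233 in SU-DHL-8. The protease inhibitor SERPINA9 was at 26, 23.8 and 22.9 FPKM against 0 in all 3 SU-DHL-8 libraries, and S1PR2, the receptor that holds B cells inside the follicle, at 21.8, 20.4 and 19.6 against 0.171, 0.0193 and 0.00928. No Farage value of these 4 genes overlapped a SU-DHL-8 value, as was so for 72.9% of all genes tested. ASB13, NEK6, MARCKSL1 and ITPKB, which turns inositol trisphosphate into its next phosphate form, were also higher in Farage, with log2 differences of 5.19, 5.26, 4.52 and 4.67.

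SU-DHL-8 expressed other members of the same list. TCL1A, a coactivator of AKT, stood at 246, 233 and 235 FPKM in SU-DHL-8 and at 0, 0 and 0.0267 in Farage (-7.89 ± 0.041, adjusted p = 2.9e-09). BACH2, the repressor that delays plasma cell fate, was at 21.5, 21.5 and 22.3 FPKM against 0.121, 0.153 and 0.153. The ectoenzyme CD38 was at 33.6 against 8.62 FPKM, the regulator of G protein signalling RGS13 at 15.7 against 5.01, and the histone methyltransferase EZH2 at 25.1 against 10.3, each called. MME (CD10) was at 1.77 FPKM in Farage and 1.33 in SU-DHL-8 and was not called (adjusted p = 0.0623). In all, 28 of 29 germinal centre genes were tested. Of these, 15 were at least 2-fold higher and 6 lower in Farage, with a median of 1.18, and of the 17 with a mean of at least 1 FPKM in both lines, 6 were higher and 4 lower, with a median of 0.27.

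Genes by which the activated B cell type of the disease is usually recognised did not fall on 1 side either. Of 23 tested of 26, 13 were at least 2-fold higher and 5 lower in Farage (median 1.23; 1.21 over the 18 present in both). BATF, an AP-1 family factor, was at 46.4, 46.2 and 53.6 FPKM in Farage and 3.93, 3.45 and 5.47 in SU-DHL-8, and the survival gene BCL2 at 15.2, 16.2 and 15.3 against 2.75, 2.61 and 2.67. The ectonucleotidase gene ENTPD1, the adaptor BLNK and the kinase PIM1 were higher in Farage as well (2.56, 2.56 and 2.03). FOXP1 was near 0 in Farage, at 0.0541 FPKM, and at 2.13 in SU-DHL-8. IRF4, the factor most tied to this type, differed little in size, at 49.8, 48.7 and 47 FPKM in Farage and 33.3, 32 and 35.4 in SU-DHL-8 (0.52 ± 0.051). Among 13 tested plasma cell genes 4 were at least 2-fold higher and 4 lower (median 0.52), and over the 10 present in both lines 1 was higher and 4 lower (median -0.26). The receptor SLAMF7 (39.5 against 0.0878 FPKM) and the joining chain JCHAIN (20.8 against 1.94) were higher in Farage, and the secretory factor XBP1 (8.14 against 31.8) and the folding partner of immunoglobulin MZB1 (39.2 against 95.4) were lower.

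Several transcription factors of the lymphoid lineage were near 0 in 1 of the 2 lines. IRF8, which shapes germinal centre B cells together with SPI1, was at 121, 115 and 123 FPKM in Farage and 0.00837, 0.00897 and 0 in SU-DHL-8 (6.91 ± 0.0443, adjusted p = 5.1e-09; ENSG00000140968, chromosome 16, 85898803 to 85922609 on GRCh38). RUNX3 was at 70.4, 61.2 and 59.5 FPKM against 0.0267, 0.115 and 0.213, and TOX, an HMG box factor, at 41.6, 39.1 and 41.1 against 0.0161, 0.0173 and 0. IKZF3 (Aiolos), the target of lenalidomide, was at 80.8 against 2.79 FPKM, and ZBTB32 and EGR2 were higher in Farage by 4.14 and 3.78. In SU-DHL-8, ID3, which ties up E proteins, was at 118, 120.0 and 126 FPKM against 3.63, 3.85 and 3.31 in Farage (-4.74 ± 0.0567), while TCF3, the E protein it binds, was at 91.1 in SU-DHL-8 and 80.5 in Farage. AFF3 was at 8.33 FPKM in SU-DHL-8 and 0.205 in Farage, and ZEB2 at 9.66 in SU-DHL-8 and 1.11 in Farage. Of 42 tested factors, 18 were at least 2-fold higher and 8 lower in Farage (median 0.56; 7 and 5 of the 28 present in both, median 0.44). SPI1 was at 15.2 FPKM in Farage and 11.9 in SU-DHL-8 and was not called (adjusted p = 0.066).

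**Figure D2:**
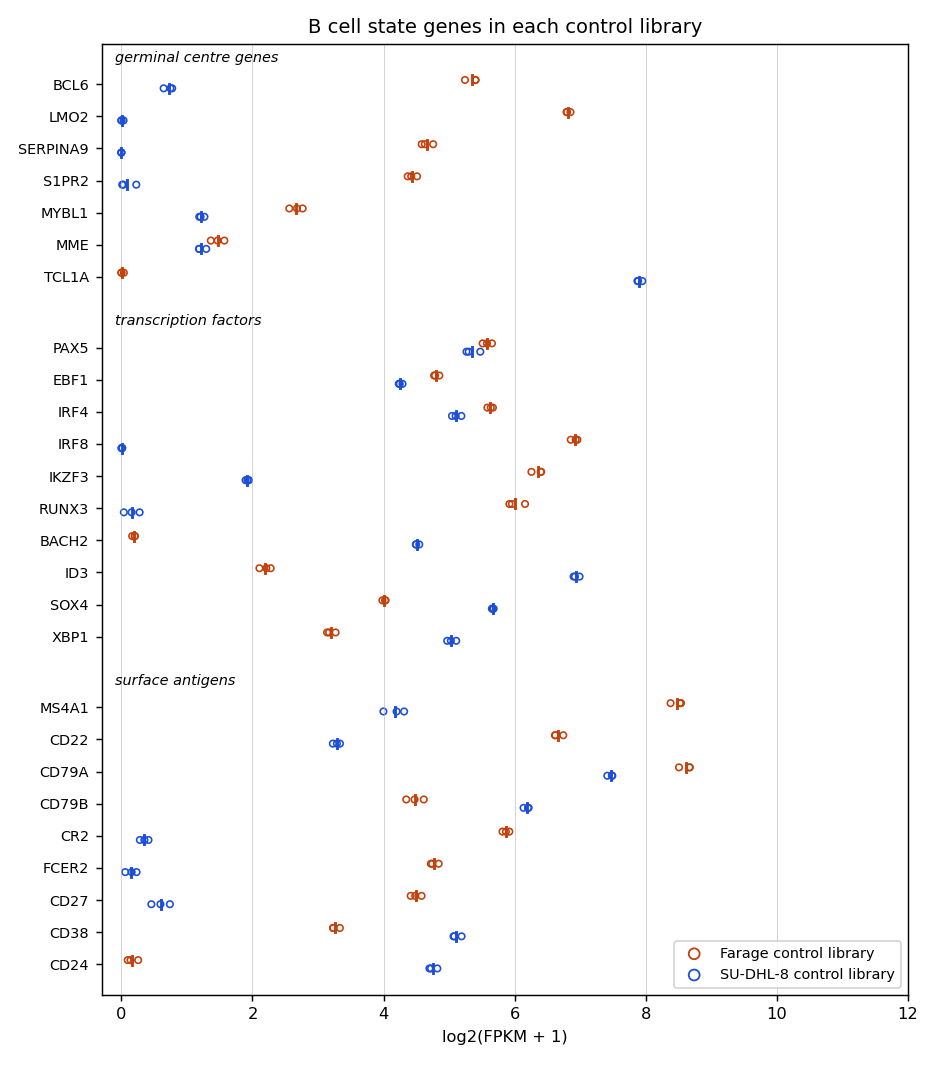
Open circles are single control libraries and short vertical bars the mean of the 3, on a log2(FPKM + 1) axis, for germinal centre genes, transcription factors and surface antigens. The lines stand far apart for BCL6, LMO2, IRF8 and RUNX3 (high in Farage) and for TCL1A, BACH2 and CD24 (high in SU-DHL-8), and near each other for PAX5, EBF1 and MME.

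The antigen receptor genes differed in isotype and in light chain. IGHM, the mu heavy chain constant gene, was at 294, 256 and 277 FPKM in Farage and 0.105, 0.113 and 0 in SU-DHL-8, and IGHD at 19, 14.4 and 14.3 against 0 in all 3. SU-DHL-8 instead had IGHG3 at 214, 199.5 and 232 FPKM against 3.71, 3.54 and 2.89 in Farage, and IGHG1 at 84.1, 76.6 and 85.9 against 13.5, 12.8 and 12.7. The gamma constant genes are near-identical copies, so the split of reads among IGHG1, IGHG2, IGHG3 and IGHG4 is uncertain. Thus the heavy chain RNA was mainly mu in Farage, with far lower levels of delta and gamma, and mainly gamma in SU-DHL-8. IGKC, the kappa constant gene, was present in both, at 315 FPKM in Farage and 1531 in SU-DHL-8. The lambda constant genes IGLC2 and IGLC3, again near-identical, were at 980.5 and 1139 FPKM in SU-DHL-8 and at 0.0218 and 0.131 in Farage.

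In each line few variable segments stood out. The leading heavy chain segment in Farage was IGHV3-33, at 3.49, 23.2 and 21.1 FPKM, which is low in the first library, and the leading kappa segment IGKV4-1, at 62.8, 69.8 and 73.7 FPKM. Both were at 0 in SU-DHL-8. There, IGLV1-44 reached 2306, 2172 and 2471 FPKM, against 18.7 for the next lambda segment, IGLV1-47, and IGKV1-39 reached 33.0, 35.8 and 45.7. IGHV3-53 led the heavy segments of SU-DHL-8 with a mean of 5.61 FPKM, beside 4.21 for IGHV4-59. So RNA of a kappa and of a lambda segment was present in SU-DHL-8 and, at 5 FPKM or more, only of a kappa segment in Farage, where the highest lambda segment, IGLV4-69, had a mean of 2.88 FPKM. Variable segments are alike in sequence and mutated in mature B cells, and no source states how reads were shared between them.

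Of the genes of the precursor stage, those of the recombinase and the surrogate light chain were present in SU-DHL-8 and at or near 0 in Farage. RAG1 was at 19.9, 21.3 and 20.4 FPKM in SU-DHL-8 and 0.0808, 0.048 and 0.0692 in Farage, and RAG2, which overlaps it on the opposite strand, was at 15.6, 16.4 and 14.7 and at 0 in all 3 Farage libraries. IGLL1, the lambda-like part of the surrogate light chain, was at 512, 479 and 481 FPKM against 0.0881, 0.24 and 0.0336 (-8.78 ± 0.0753), and its partner VPREB1 at 38.5, 36.5 and 40 against 0. No source states how reads were shared between IGLL1 and the lambda constant genes, which were also high in SU-DHL-8, so the level of IGLL1 is uncertain. VPREB3 was at 112 FPKM in SU-DHL-8 and 12.9 in Farage. All of these differences were without overlap, as was so for 72.9% of all genes tested. DNTT, the enzyme that adds untemplated bases during joining, had means of 0.00907 FPKM in Farage and 0.286 in SU-DHL-8 and did not pass the filter. Over the 15 tested of 22 immunoglobulin, surrogate chain and recombinase genes, 3 were at least 2-fold higher in Farage and 12 lower.

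Surface antigens were mostly higher in Farage. MS4A1, which codes for CD20, the target of rituximab, was at 332, 366 and 370.5 FPKM in Farage and 17.4, 18.9 and 15 in SU-DHL-8 (4.31 ± 0.0907, adjusted p = 2.0e-07), and CD22 at 106, 97 and 97.4 against 8.77, 8.36 and 9.09. The complement receptor CR2 (CD21), which is also the entry receptor of the Epstein-Barr virus, was at 59.5, 57.3 and 55.3 FPKM against 0.276, 0.216 and 0.332. SLAMF1, the receptor for BAFF TNFRSF13C, the low-affinity IgE receptor FCER2 (CD23) and CD27 were higher by 5.75, 4.96, 4.62 and 3.89. On the other side, CD24 was at 25, 27.2 and 25.4 FPKM in SU-DHL-8 and 0.102, 0.0695 and 0.195 in Farage, although reads of this gene can be split with near-identical copies elsewhere. The 2 signalling chains of the receptor went apart: CD79A was at 391 FPKM in Farage and 175 in SU-DHL-8, CD79B at 21.3 in Farage and 71.7 in SU-DHL-8. Of 34 tested of 40 surface genes, 21 were at least 2-fold higher and 4 lower in Farage (median 1.46). Over the 23 present in both lines these counts were 12 and 2 (median 1.15).

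Below the receptor, the 3 VAV exchange factors did not all stand on 1 side, and several kinases differed widely. The Src family kinases LCK and FGR were high in Farage, LCK at 64.2, 59.1 and 65.3 FPKM against 0.216, 0.58 and 0.628 and FGR at 26.1, 25.2 and 27.8 against 0, and FYN was at 32.9 against 1.37. LYN, the main Src family kinase of B cells, was at 12.2 FPKM in Farage and 8.52 in SU-DHL-8. The phosphatase PTPN6 (SHP-1) was at 82.9, 73.3 and 77.3 FPKM in Farage and 4, 4.52 and 4.17 in SU-DHL-8, and RASGRP3, which activates RAS, at 21, 22.8 and 22.1 against 0.0733, 0.177 and 0.179. VAV2 and VAV1 were higher in Farage (4.42 and 1.81) and VAV3 lower (-1.67). SYK was at 27.4 FPKM in Farage and 55.8 in SU-DHL-8, and BTK, the target of ibrutinib, at 16.7, 15.2 and 16.2 in Farage and 16.1, 16.9 and 15.4 in SU-DHL-8, with a difference of -0.01 ± 0.0545, or 0.09 with values scaled to TPM, that was not called (adjusted p = 0.929). Of 38 genes, all tested, 20 were at least 2-fold higher and 5 lower in Farage (median 1.10; 15 and 2 of the 30 present in both, median 1.02).

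The antigen-presenting chains of MHC class II were lower in Farage, most of them near 0. HLA-DRA, the alpha chain of HLA-DR, was at 964, 976 and 892 FPKM in SU-DHL-8 and 0.212, 0.216 and 0.194 in Farage (-9.61 ± 0.047, adjusted p = 2.9e-09; ENSG00000204287, chromosome 6, 32439842 to 32445046), a difference exceeded among the listed genes only by those of the light chain genes IGLC2 and IGLC3. HLA-DRB1 was at 37.2, 36.5 and 36.3 FPKM against 0.154, 0.14 and 0.117, HLA-DPA1 at 89.3, 86.3 and 84.5 against 5.83, 5.57 and 5.41 and HLA-DPB1 at 21.9, 23.1 and 22.4 against 0.556, 0.803 and 0.572. HLA-DQA1 and HLA-DQB1 were low even in SU-DHL-8, with means of 1.81 and 1.34 FPKM. DRB and DQ genes are polymorphic and alike, so their absolute levels depend on how reads were assigned. CD74, the invariant chain that escorts class II chains, was at 305 FPKM in SU-DHL-8 and 122 in Farage.

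The peptide editor and the master regulator did not follow the chains. HLA-DMA and HLA-DMB, which load peptides, were higher in Farage, HLA-DMA at 36.2, 34.5 and 37.3 FPKM against 17.9, 17.2 and 17.4 and HLA-DMB at 19.8, 19.7 and 20.5 against 5.53, 4.72 and 5.49 (1.75 ± 0.0632), and so was HLA-DOB (3.38 against 1.01). Its partner HLA-DOA was lower, at 0.637 against 42.3 FPKM. CIITA, the coactivator on which class II transcription depends, was at 9.71, 9.74 and 8.12 FPKM in Farage and 6.67, 6.6 and 7.19 in SU-DHL-8 (0.38 ± 0.0783), so it was slightly higher in the line with almost no HLA-DRA. RFX5, a subunit of the factor that binds the X box, was at 16.4 FPKM in Farage and 54.1 in SU-DHL-8, and its partners RFXAP and RFXANK at 5.26 and 17.6 against 10 and 14.6. Of the 19 genes, all tested, 2 were at least 2-fold higher and 12 lower in Farage, with a median of -1.47. Over the 10 with a mean of at least 1 FPKM in both lines the median had the other sign, 0.32, with 2 higher and 3 lower.

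The promoters of 2 class II genes that went in opposite directions are shown because both hold cores of the same short elements. They are the 250 bases before the RefSeq start of HLA-DRB1 (chr6:32589849-32590098, minus strand) and HLA-DMB (chr6:32941029-32941278, minus strand), build GRCh38.p14, 5′ to 3′. Capitals mark the core of the X box, searched as ACNGATG, and of the Y box, searched as ATTGG, each on both strands; the matches do not overlap.
HLA-DRB1: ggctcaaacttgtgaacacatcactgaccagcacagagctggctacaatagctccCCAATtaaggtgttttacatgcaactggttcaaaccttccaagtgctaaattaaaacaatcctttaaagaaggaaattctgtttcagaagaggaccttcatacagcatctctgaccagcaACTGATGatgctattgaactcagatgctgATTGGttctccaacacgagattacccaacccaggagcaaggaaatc
HLA-DMB: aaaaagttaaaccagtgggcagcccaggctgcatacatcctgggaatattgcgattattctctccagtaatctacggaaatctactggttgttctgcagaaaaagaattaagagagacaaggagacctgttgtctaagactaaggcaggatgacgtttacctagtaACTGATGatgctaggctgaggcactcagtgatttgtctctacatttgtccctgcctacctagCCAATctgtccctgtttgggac
HLA-DRB1 held 1 X box core and 2 Y box cores and HLA-DMB 1 of each, and the X core reads the same in both. After the X core, the Y core reads ATTGG in HLA-DRB1. In HLA-DMB it also follows the X core but reads CCAAT, on the other strand, and lies farther away. The order was therefore shared, and the strand and spacing of these exact matches were not. A core with 1 changed base would be missed by this search. Of the 16 class II list genes with a RefSeq promoter, 13 (81.2%) held the Y core and 6 (37.5%) the X core before at least 1 start, against 37% and 7.82% of all 27195 genes in the table of promoters. A match is a description of letters and not of a bound factor.

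**Figure D3:**
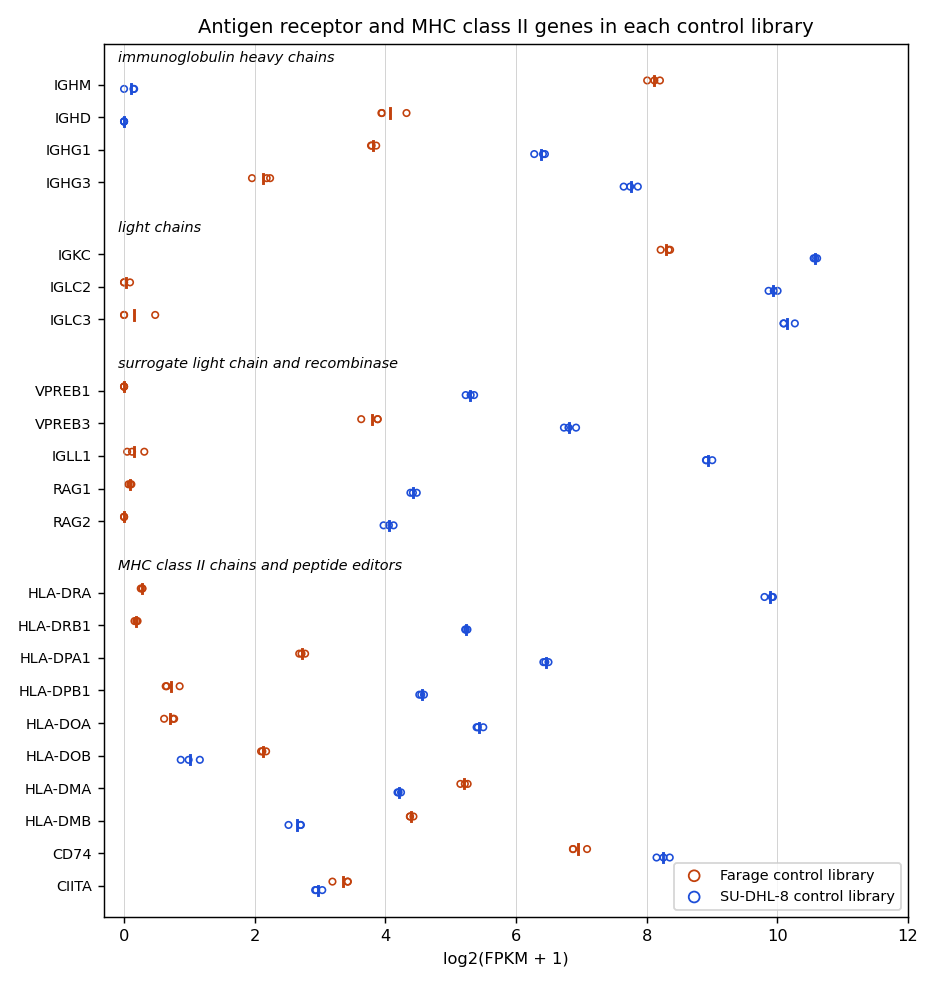
Open circles are single control libraries and short vertical bars the mean of the 3, on a log2(FPKM + 1) axis, for antigen receptor genes and MHC class II genes. Heavy chain constant genes swap sides between IGHM and IGHG3, RAG1, IGLL1 and VPREB1 lie near 0 in Farage, and HLA-DMA, HLA-DMB and HLA-DOB lie on the opposite side from HLA-DRA and HLA-DPA1.

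MHC class I, which presents peptides from inside the cell, differed little. Of 20 tested genes, 1 was at least 2-fold higher in Farage, the trimming peptidase ERAP2 (12.9 against 3.82 FPKM), and the median was 0.00. B2M, the shared light chain, was at 319, 340.3 and 358 FPKM in Farage and 315, 334 and 291 in SU-DHL-8 and was not called (adjusted p = 0.192). HLA-C was at 53.5 FPKM in Farage and 57.8 in SU-DHL-8 and not called either. Costimulators, by contrast, were mostly higher in Farage: 12 of 16 tested were at least 2-fold higher and 2 lower, or 7 and 0 of the 8 present in both lines. CD86 was at 20.4, 18.9 and 22.6 FPKM against 0.153, 0.215 and 0.207, CD70 at 56.3, 51.8 and 57.4 against 7.04, 4.99 and 6.37 and the 4-1BB ligand TNFSF9 at 27.5 against 2.47. CD80 and CD58, a ligand of T and NK cells, were higher by 1.66 and 1.38. CD274 (PD-L1) was low in both, with means of 3.5 FPKM in Farage and 0.626 in SU-DHL-8, and CD47 was at 21.3 in Farage and 24.6 in SU-DHL-8.

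Most NF-kappaB genes were higher in Farage. TRAF1, an adaptor of TNF receptors that NF-kappaB itself turns on, was at 75.6, 68.6 and 70.1 FPKM in Farage and 0.183, 0.0787 and 0.272 in SU-DHL-8 (5.94 ± 0.075, adjusted p = 3.6e-08). BIRC3, an inhibitor of apoptosis and ligase of the same complexes, was at 154, 171 and 170.4 FPKM against 10.4, 11.1 and 9.99, and MAP3K8 at 27.1, 27.6 and 25.1 against 0.252, 0.29 and 0.298. Of the subunits, REL was at 21.8 against 1.62 FPKM, RELB at 44.2 against 13.7, NFKB1 at 42.9 against 13.4 and NFKB2 at 59.6 against 19.2. RELA, which is mostly controlled at the protein, was at 12.8, 12 and 10.8 FPKM in Farage and 10.8, 9.89 and 11.5 in SU-DHL-8 and not called. The feedback inhibitors NFKBIA, TNFAIP3 (A20) and TNIP1 were also higher in Farage (2.25, 1.06 and 2.97). All 27 genes were tested, 16 were at least 2-fold higher and 0 lower (3 were called lower by limma without the fold limit), and the median was 1.13, or 1.06 over the 24 with a mean of at least 1 FPKM in both lines.

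The promoter of BIRC3 is shown because it carries the motif of this family. It covers the 250 bases before the RefSeq start (chr11:102317234-102317483, plus strand, build GRCh38.p14), 5′ to 3′, with the kB motif in capitals, searched on both strands.
BIRC3: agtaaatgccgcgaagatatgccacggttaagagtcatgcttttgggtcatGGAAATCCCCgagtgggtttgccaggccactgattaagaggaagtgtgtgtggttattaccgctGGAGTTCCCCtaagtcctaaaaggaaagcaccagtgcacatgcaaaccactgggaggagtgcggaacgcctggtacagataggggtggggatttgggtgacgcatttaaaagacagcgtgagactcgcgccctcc
It held 2 matches. The kB motif was present before at least 1 start in 12 of 24 NF-kappaB list genes with a RefSeq promoter (50%) and 6 of 21 genes of the next list (28.6%), against 6.29% of all 27195 genes.

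That list holds host genes known to be raised when the Epstein-Barr virus transforms B cells. Of 27, 25 were tested, 23 were at least 2-fold higher in Farage, 0 were lower and the median was 3.25. Over the 10 with a mean of at least 1 FPKM in both lines, 8 were at least 2-fold higher and the median was 1.99. Several members also stand in the NF-kappaB, TNF and surface lists, and the part of the virus in these levels was not tested. BCL2A1, a BCL2 relative that protects activated B cells, was at 241, 266 and 262 FPKM in Farage and 0.396, 0.566 and 0.544 in SU-DHL-8 (7.42 ± 0.0646). EBI3, a cytokine subunit found through this virus, was at 40.5, 33.8 and 36.5 FPKM against 0.104, 0 and 0, the chemokine CCL22 at 44, 37.7 and 36.2 against 0, and TNFRSF8 (CD30) at 38.8, 35.2 and 35.2 against 0.474, 0.286 and 0.337. GPR183, another receptor named for its induction by the virus, was at 2.3, 2.01 and 1.95 FPKM in Farage and 2.03, 1.17 and 2.57 in SU-DHL-8 and was not called (adjusted p = 0.636), and CCR7 was at 21.6 in Farage and 10.3 in SU-DHL-8 (0.99).

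MIR155HG, the host transcript of miR-155, was at 54.7, 67.8 and 67.1 FPKM in Farage and 0.998, 1.45 and 1.07 in SU-DHL-8 (4.89 ± 0.114). The mature miR-155 is a B cell oncogenic microRNA and is shown because it is cut from this transcript; its own level was not measured. The RefSeq sequence of its main arm (build GRCh38.p14, chromosome 21, 25573983 to 25574006, plus strand) is given 5′ to 3′ with the seed, bases 2 to 8, in capitals.
hsa-miR-155-5p: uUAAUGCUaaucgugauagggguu

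Among TNF and cytokine genes, those that differed by at least 2-fold were mostly higher in Farage. LTA (lymphotoxin alpha) was at 56.7, 48 and 51.5 FPKM against 0.68, 0.851 and 0.273 in SU-DHL-8, TNF at 72.5, 66 and 64.4 against 1.53, 1.26 and 1.61, and TNFRSF9 (4-1BB) at 16.6, 16.7 and 17.4 against 0, 0 and 0.0106. Of 17 tested of 31 TNF ligands and receptors, 13 were at least 2-fold higher and 1, TNFRSF1B, lower (6.75 against 14.7 FPKM), or 6 and 1 of the 9 present in both lines. IL32 was at 69.1, 64 and 66.2 FPKM in Farage and 0.0818, 0.0219 and 0 in SU-DHL-8, IL10 at 1.79 against 0 and IL12B at 2.08 against 0.00711. Of 28 cytokine genes 10 passed the filter and 8 of these were at least 2-fold higher in Farage, most of them through their level in that line: 3 were present in both lines, and 1 of these was at least 2-fold higher. Among receptors, the shared beta chain CSF2RB, IL21R and IL4R were higher in Farage by 3.51, 3.05 and 2.23, while IFNGR1, which binds interferon gamma, was lower, at 4.2 against 23.6 FPKM. Of 20 tested of 37 cytokine receptors 11 were at least 2-fold higher and 1 lower in Farage, or 6 and 1 of the 14 present in both lines.

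In the JAK and STAT pathway, JAK2 was at 16.8, 17.6 and 15.9 FPKM in Farage and 1.07, 1.36 and 1.68 in SU-DHL-8 and STAT3 at 15.4 against 6. STAT6, the signal carrier of IL4, was at 41.1 FPKM in Farage and 31.5 in SU-DHL-8. SOCS2, a feedback inhibitor, was the reverse, at 3.37 FPKM in SU-DHL-8 and 0.0759 in Farage, and SOCS1 was at 5.09 in Farage and 5.68 in SU-DHL-8 and was not called. Of 18 tested genes, 9 were at least 2-fold higher and 2 lower in Farage (median 1.01; 8 and 1 of the 16 present in both, median 1.01). Interferon-stimulated genes were mixed, 9 of 24 tested at least 2-fold higher and 4 lower (5 and 3 of the 17 present in both). IFITM1 and MX1 were higher in Farage (2.31 and 1.80), MX2, IFIT5 and USP18 lower (-1.72, -2.22 and -1.47), and ISG15 was at 10.1 FPKM in Farage and 8.93 in SU-DHL-8 and was not called. Among innate receptors, TLR10 was at 40.1, 45.4 and 44.3 FPKM in Farage and 0.475, 0.584 and 0.321 in SU-DHL-8, and the inflammasome adaptor PYCARD at 0.381 in Farage and 6.28 in SU-DHL-8. MYD88, through which most of these receptors signal, was at 23.2 FPKM in Farage and 18.6 in SU-DHL-8.

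Homing receptors were divided between the lines. CXCR4, which draws B cells to the dark zone and the bone marrow, was at 104, 109.7 and 97 FPKM in SU-DHL-8 and 6.94, 6.89 and 7.66 in Farage (-3.68 ± 0.0631). CXCR5, which draws them to the follicle, was at 5.4, 4.81 and 4.87 FPKM in Farage and 0 in SU-DHL-8. The scavenger receptor of the same CXCR4 ligand, ACKR3, was at 13.6 FPKM in Farage and 0.0106 in SU-DHL-8. Of the sphingosine phosphate receptors, S1PR2 was the Farage gene given above and S1PR4 the SU-DHL-8 gene, at 42.4, 39.2 and 40.2 FPKM against 3.47, 2.7 and 2.85. P2RY8, which confines germinal centre B cells, was at 72.3 against 8.04 FPKM, and GNA13, the G protein that it shares with S1PR2, at 57.9 against 27.8. Of 18 tested receptors and regulators, 10 were at least 2-fold higher and 3 lower in Farage (4 and 3 of the 10 present in both). Chemokines were nearly all under 0.1 FPKM in SU-DHL-8: 7 of 22 were tested, CCL5 was higher there (8.02 against 2.04 FPKM), and XCL1, CCL4 and CXCL8 were at 12.2, 7.88 and 3.99 FPKM in Farage and at most 0.037 in SU-DHL-8. XCL1 and XCL2 are near-identical copies.

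Adhesion genes also stood on both sides, but more of those tested were at least 2-fold higher in Farage than lower. Of 9 tested of 26 integrins, 4 were at least 2-fold higher and 1 lower in Farage (0 and 1 of the 5 present in both). The integrin chain ITGB7, which pairs with alpha 4 for homing to the gut, was at 21.1, 19.9 and 20.2 FPKM in Farage and 0, 0.0633 and 0.0304 in SU-DHL-8, and ITGAL, the alpha chain of LFA-1, at 9.22, 8.84 and 8.48 against 0.127, 0.161 and 0.192. ITGA4 was the reverse, at 7.4 FPKM against 21.3, and ITGB1 was at 4.74 in Farage and 4.2 in SU-DHL-8 and was not called. The ligand of LFA-1, ICAM1, was higher in Farage (26.8 against 8.37 FPKM). SEMA7A, CD226 and SEMA4A were higher by 5.36, 4.78 and 3.61, and SEMA4D and the tetraspanins CD9 and CD151 lower by -1.88, -1.27 and -1.43. Of 24 tested of 45 other adhesion genes, 13 were at least 2-fold higher and 5 lower in Farage (6 and 1 of the 12 present in both).

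The cytoskeleton differed in both abundant and selective parts. The beta actin gene ACTB was at 2478, 2303 and 2347 FPKM in Farage and 927, 918 and 937 in SU-DHL-8 and ACTG1 at 993 against 299, so neither actin was level between the lines. VIM (vimentin) was at 32.8, 30.9 and 29.4 FPKM against 0.837, 0.782 and 0.804, and the galectin LGALS3 at 75.7 against 0.884. S100A10 was the reverse, at 95.2, 89.7 and 94.8 FPKM in SU-DHL-8 and 5.24, 3.77 and 4.17 in Farage, while its partner ANXA2 was at 10.8 in SU-DHL-8 and 14.3 in Farage. TPM2, a tropomyosin, was at 18.1 against 0.0168 FPKM and EZR (ezrin) at 271 against 98.3. Its relatives RDX and MSN were at 7.08 and 59.6 FPKM in SU-DHL-8 and 7.31 and 81.5 in Farage. Of 26 tested genes 14 were at least 2-fold higher and 5 lower in Farage (median 1.31; 9 and 3 of the 19 present in both, median 0.66).

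Among genes of cell death, the protectors BCL2A1, BIRC3 and BCL2 were higher in Farage, and so was the killer BIK, at 133, 124 and 139 FPKM against 0.725, 1 and 0.676 (6.21 ± 0.0821). MCL1, the main survival protein of germinal centre cells, was at 75.7, 76.2 and 74.6 FPKM in Farage and 64.7, 67.7 and 65.5 in SU-DHL-8, and BCL2L1 (BCL-XL) at 16.7 in Farage and 24.2 in SU-DHL-8. BCL2L11 (BIM) was lower in Farage, at 4.91, 5.26 and 4.39 FPKM against 16, 16.3 and 18, and PMAIP1 (NOXA), a partner of MCL1, higher, at 88 against 26.6. The effectors BAX and BAK1 were at 17.8 and 23.9 FPKM in Farage and 21.5 and 13.1 in SU-DHL-8. CASP1 was lower in Farage (-1.53). Of 28 tested genes 9 were at least 2-fold higher and 3 lower in Farage (5 and 2 of the 22 present in both).

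The MYC network was close in the 2 lines. MYC was at 34.2, 30.1 and 28.2 FPKM in Farage and 50.4, 47.1 and 54.6 in SU-DHL-8 (-0.70 ± 0.0861), and its partner MAX at 11.4 in Farage and 11.8 in SU-DHL-8, not called. Of 14 tested genes 0 were at least 2-fold higher and 1, the telomerase gene TERT, lower in Farage (0.579 against 5.75 FPKM). Without the fold limit, 4 were called higher and 6 lower. The control of G1 differed far more. RB1, the retinoblastoma gene, was at 58.6, 63.3 and 54.5 FPKM in SU-DHL-8 and 6.6, 7.49 and 6.57 in Farage (-2.92 ± 0.074), E2F2 at 61.8, 60.6 and 65.1 against 11.6, 10.8 and 10.3, and the cyclin CCND3 at 162, 159.5 and 165 against 43, 37.8 and 40.2. CDK6 was the reverse, at 37.2, 36.9 and 34.9 FPKM in Farage and 9.64, 10.8 and 10 in SU-DHL-8, while CDK4 was at 34.1 in Farage and 63.4 in SU-DHL-8. The inhibitors CDKN2A and CDKN1B (p27) were lower in Farage, at 5.13 and 3.95 FPKM against 19.1 and 13. TP63, a transcription factor better known from epithelia, was at 11.4, 11.3 and 11.1 FPKM in Farage and 0.623, 1.2 and 0.968 in SU-DHL-8. Of 23 tested genes 4 were at least 2-fold higher and 8 lower in Farage (median -0.57; 2 and 8 of the 21 present in both, median -0.67).

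Genes of DNA replication and mitosis were lower in Farage by modest amounts. All 30 were tested and present in both lines, and 2 were called higher and 26 lower, against 36.5% and 32.4% of all genes tested. The median was -0.63, and 8 (26.7%) were at least 2-fold lower, against 7.75% of all genes present in both lines. UBE2C, which drives exit from mitosis, was at 48.7 FPKM against 245, AURKA at 27.1 against 90.5, and PCNA, the sliding clamp, at 237 against 614. MKI67, the proliferation marker of pathology, was at 74.8, 70.5 and 62.3 FPKM in Farage and 56.4, 54.9 and 64.2 in SU-DHL-8 and was not called (difference 0.24, adjusted p = 0.0512), but was at 0.34 and called with values scaled to TPM. With values scaled to TPM the median of all genes moved up by 0.10, and this list's median kept its sign.

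Of 27 tested chromatin regulators mutated in lymphoma, 2 were at least 2-fold higher and 4 lower in Farage (22.2%, against 26.9% of all genes). Of the 24 present in both lines, 1 was higher and 3 lower (16.7%, against 16%), so neither share set this list apart. DNMT3B was at 2.51 FPKM in SU-DHL-8 and 0.0878 in Farage, and the remodeller SMARCA4 was lower and its relative SMARCA2 higher in Farage (-1.13 and 1.04). CREBBP, EP300 and KMT2D were at 9.26, 14.4 and 8.27 FPKM in Farage and 7.45, 12.4 and 12.7 in SU-DHL-8. Of the other lymphoma genes, the phosphatase DUSP2 was at 179.6, 176 and 185 FPKM in Farage and 3.93, 4.49 and 3.89 in SU-DHL-8 and the kinase SGK1 at 30.9, 31.2 and 30.2 against 0.184, 0.134 and 0.129. DUSP6, which ends ERK signalling, was the reverse, at 9.1, 10.9 and 10.9 FPKM in SU-DHL-8 and 0.137, 0.237 and 0.18 in Farage. The receptor tyrosine kinase MET was at 8.61 against 0.0284 FPKM, and NRAS and BRAF at 38.9 and 3.53 in Farage and 38.1 and 3.51 in SU-DHL-8. Of 30 cancer-testis genes 1 was tested, MAGEB2, at 1.26 FPKM in Farage and 0 in SU-DHL-8, and 6 of 43 HOX and cofactor genes.

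**Figure D4:**
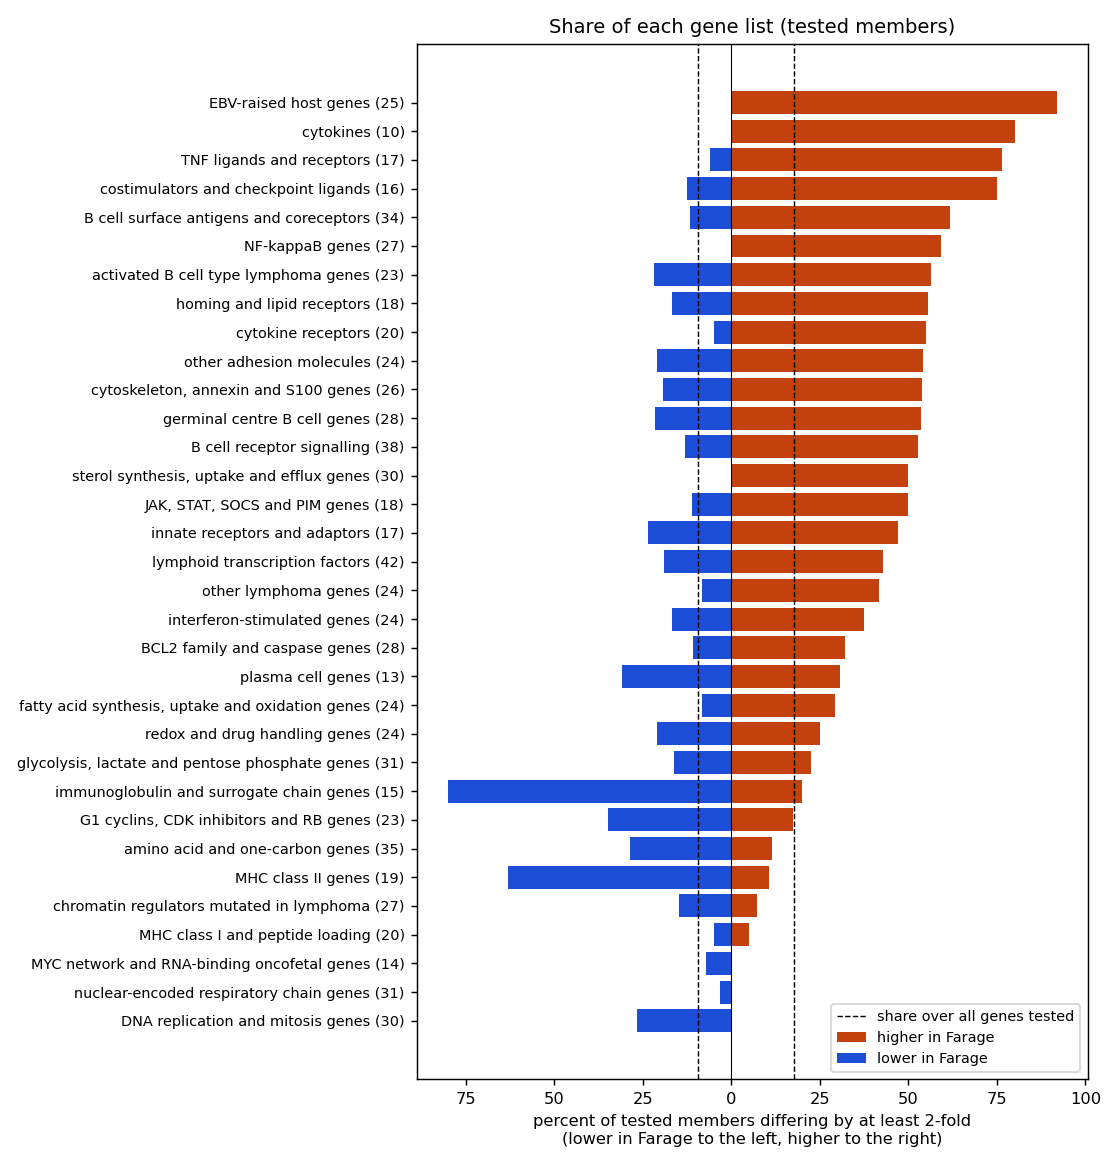
Bars give, for each gene list with at least 10 tested members (number in brackets), the percent of tested members called and at least 2-fold higher in Farage (right) or lower (left); dashed lines are the shares over all genes tested, 17.6% and 9.28%. The host genes raised by the Epstein-Barr virus, cytokines and TNF genes extend farthest right, and immunoglobulin and MHC class II genes farthest left; genes present in 1 line only differ by construction.

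Among metabolic genes, those of sterols stood mostly on the Farage side. Of 30 tested of 36 genes of sterol synthesis, uptake and efflux, all with a mean of at least 1 FPKM in both lines, 15 were at least 2-fold higher in Farage and 0 lower (5 without the fold limit), with a median of 0.98. HMGCS1, which makes HMG-CoA for the mevalonate pathway, was at 51.9, 54.2 and 56.8 FPKM in Farage and 16.1, 17 and 14.4 in SU-DHL-8 (1.72 ± 0.0693), LSS, which closes the sterol rings, at 16.6, 15.3 and 15.2 against 3.41, 3.58 and 3.93, and the regulator SREBF1 at 11.2, 9.52 and 10 against 2.26, 2.45 and 2.72. MYLIP, a ubiquitin ligase, was at 9.94 against 1.58 FPKM. SOAT1, which stores cholesterol as esters, was at 11.2 FPKM against 20.8. In fatty acid metabolism the desaturase FADS2 was at 20.1, 18.9 and 19.5 FPKM against 0.218, 0.117 and 0.183 and CPT1A, the gate to mitochondrial oxidation, at 9.96, 8.96 and 9.36 against 0.02, 0.0911 and 0.0515. ELOVL6, which lengthens chains, was lower in Farage (1.44 against 10.9 FPKM), and its relative ELOVL5 was at 47.4 in Farage and 51.4 in SU-DHL-8 and was not called.

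In glycolysis, isoenzymes of the same step stood on different sides. ENO2 was at 19.8, 17 and 17.5 FPKM in Farage and 0.046, 0.0164 and 0.0316 in SU-DHL-8, beside ENO1 at 317 in Farage and 439 in SU-DHL-8. HK2 was lower in Farage, at 9.96, 9.79 and 9.33 FPKM against 35.2, 34.9 and 36.9, and HK1 higher, at 28.5, 24.7 and 26.1 against 9.24, 9.89 and 9.04. The phosphofructokinases PFKM and PFKP were lower in Farage (-1.57 and -1.47) and TPI1 was at 127 FPKM against 461. GAPDH was at 842, 792 and 944 FPKM in Farage and 971, 952 and 897 in SU-DHL-8 and was not called (adjusted p = 0.164). Of 31 tested genes 7 were at least 2-fold higher and 5 lower in Farage (6 and 5 of the 29 present in both). Nuclear genes of the respiratory chain were nearly level, with a median of 0.10. Of 31 tested, 0 were at least 2-fold higher and 1 lower in Farage (12 and 10 without the fold limit). The 13 mitochondrially encoded protein genes were listed at 0 in all 6 libraries and could not be compared.

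Amino acid genes held some of the widest single contrasts of metabolism. PHGDH, the first enzyme of serine synthesis, was at 10.7, 10.1 and 11.3 FPKM in Farage and 0.00715, 0.0153 and 0.0295 in SU-DHL-8 (3.52 ± 0.0749), while the next enzymes, PSAT1 and PSPH, were at 43.4 and 10.7 FPKM in Farage and 48.6 and 33 in SU-DHL-8. GPT2, a mitochondrial alanine aminotransferase, was at 25.7, 26.5 and 27.9 FPKM in SU-DHL-8 and 1.02, 0.964 and 0.986 in Farage, and GLUL, glutamine synthetase, at 6.14, 5.69 and 5.94 against 0, 0.0128 and 0.00954. MTHFD1L and SHMT2, of mitochondrial one-carbon metabolism, were lower in Farage (-1.95 and -1.38), and so was the leucine carrier SLC7A5 with its partner SLC3A2 (-1.38 and -1.06). IL4I1, a secreted amino acid oxidase, was at 55.1, 46.8 and 53.4 FPKM in Farage and 1.42, 1.38 and 1.61 in SU-DHL-8. Of 35 tested genes 4 were at least 2-fold higher and 10 lower in Farage (median -0.39; 3 and 7 of the 30 present in both, median -0.37).

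Of the redox genes, GSTP1, which joins glutathione to electrophiles and drugs, gave the largest Farage excess of any gene that met the rule for named genes. It was at 363, 319 and 367 FPKM in Farage and 0, 0.0998 and 0.0383 in SU-DHL-8 (8.39 ± 0.0701, adjusted p = 1.4e-08; ENSG00000084207, chromosome 11, 67583595 to 67586656). HMOX1, which breaks down haem, was at 18.2, 16.2 and 16.5 FPKM against 0.199, 0.275 and 0.205. NQO1, a quinone reductase, was the reverse, at 58.8, 60.9 and 57.1 FPKM in SU-DHL-8 and 4.87, 5.61 and 7.37 in Farage, and TXNRD1, GCLM and GCLC were lower in Farage as well (-1.04, -0.90 and -0.87). PRDX1 and SOD1 were at 295 and 117 FPKM in Farage and 287 and 111 in SU-DHL-8, not called. Of 24 tested genes 6 were at least 2-fold higher and 5 lower in Farage (median -0.06, or 0.03 with TPM and 0.02 with median scaling). Over the 17 present in both lines 1 was higher and 4 lower (median -0.15).

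The promoter of GSTP1 is shown because it is a textbook CpG island that is methylated in many tumours, and because the gene was near 0 in 1 of these lines. It covers the 250 bases before the RefSeq start (chr11:67583562-67583811, plus strand, build GRCh38.p14), 5′ to 3′, with every CpG in capitals.
GSTP1: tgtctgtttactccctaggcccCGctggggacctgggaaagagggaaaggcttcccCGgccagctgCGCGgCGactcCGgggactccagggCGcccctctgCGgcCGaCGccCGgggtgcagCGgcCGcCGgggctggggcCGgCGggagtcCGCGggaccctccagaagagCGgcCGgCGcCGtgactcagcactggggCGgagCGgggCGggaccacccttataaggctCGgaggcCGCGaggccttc
It held 28 CpG. Methylation was not measured here. Among protein-coding genes, 135 were at 5 FPKM or more in all 3 Farage libraries and under 0.1 in all 3 of SU-DHL-8, 44 of them at 0 there, and 18 showed the reverse, 6 of them at 0. These sets are chosen by their levels and get no test. The median number of CpG in the 250 bases before the start was 22 in the first set (103 genes with a promoter in the table), 22 in the second (15 genes) and 23 over all protein-coding genes tested (8328). In the same order, the lower quartiles were 7.5, 12.5 and 17, so the low end lay lower in both sets. The upper quartiles were 31.5, 25 and 30.

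Differences also varied by chromosome, a grouping chosen after the values were seen. Among the 8553 protein-coding genes with a mean of at least 1 FPKM in both lines, 43.3% were higher in Farage and the median was -0.10. On chromosome 20 the median was -0.94 over 240 genes, of which 11.7% were higher in Farage. Chromosomes 13, 7 and 6 followed with medians of -0.54, -0.50 and -0.42, and the highest medians were 0.12 on X and 18. Of the replication and mitosis genes, the 5 on these 4 chromosomes (AURKA, MCM3, MCM7, PCNA and UBE2C) were all at least 2-fold lower in Farage, with a median of -1.37, against 3 of the other 25, with a median of -0.53. DNA copy number was not measured.

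**Figure D5:**
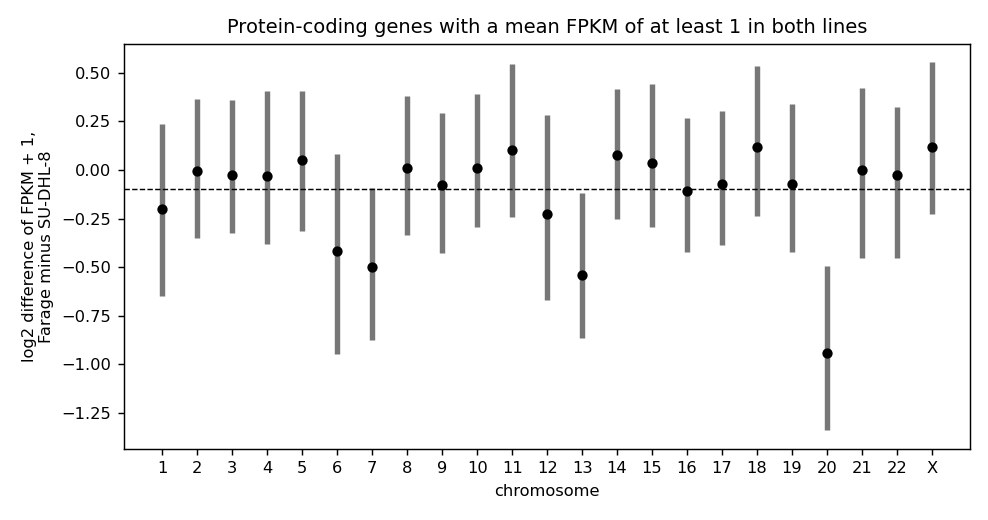
Black points are the median log2 difference of FPKM + 1 (Farage minus SU-DHL-8) of protein-coding genes on each chromosome with a mean of at least 1 FPKM in both lines, grey bars run from the lower to the upper quartile, and the dashed line is the median over all of them, -0.10. Chromosome 20 lies lowest at -0.94, followed by 13, 7 and 6.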

How the data were processed

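RNA was extracted with an RNeasy kit and made into libraries with a SMARTer mRNA-seq kit, per the labels' protocols. The authors deposited 1 table of FPKM, used here as deposited. No source used here states the aligner, the counter, the strand or the annotation. The submitters' processing notes list the mouse builds GRCm38 and mm10, but the identifiers are human and 58297 of 61466 (94.8%) match GENCODE release 29 (GRCh38), from which positions and gene types come. Columns were assigned by name: those of each line not marked as morusinol are its controls. No libraries were identical.

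Values were taken to log2(FPKM + 1) and fitted with limma 3.58.1 in R 4.3.3 (trended, robust empirical Bayes, two-sided) to the 6 control libraries, after keeping genes with at least 1 FPKM in 3. Depth was estimated from the step between low values, with a tolerance of 0.02 steps below 50 steps. In simulated data for this comparison (15385 genes), 96% of log2 changes of 1, 93% of changes of 2 and 0.0922% of unchanged genes were called. The simulation changed 100 genes by each size, all with a mean log2 value above 2 in SU-DHL-8, under independent normal noise. Far fewer genes were changed there than were called between the lines, so these rates need not hold for the real comparison or for low genes. Python 3.11.15 (pandas 2.3.3, numpy 2.4.6) made the tables and matplotlib 3.10.9 the plots.

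Named genes met a rule: the 15 largest differences a direction at a mean of at least 5 FPKM, without overlap, and, from 41 lists of 1109 genes (1107 found, 755 tested), the most and least different members and their partners. Some genes that met it are not reported here. Those placed otherwise are said to be chosen after their values were seen. The members and lists were chosen with earlier results of these data known. Replicate numbers did not pair the lines (correlations of same-numbered deviations 0.0153, -0.0585 and -0.0654). Promoter and miRNA sequences are from RefSeq, matched by symbol. The alternatives tried were another pseudocount, other filters, 3 rescalings, a fit with all 12 libraries, a replicate block, another empirical Bayes setting and leaving out each library.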

Additional observations from a re-analysis of the deposited data

How the results depend on the processing

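Under the 15 alternatives the counts of called genes stayed within 1.5 times of those reported. Leaving out each library in turn gave 9871 to 10170 called genes and 4037 to 4190 with at least a 2-fold difference. A pseudocount of 0.1 gave 10466 and 5294, no filter 14000 and 4314, and rescaling to TPM 10192 and 4966. TPM moved the median of all genes up by 0.1 and the share of calls higher in Farage from 53% to 58.9%. With the replicate block the counts were 10109 and 4130; the numbers do not pair the samples. Of 256 tested genes named, 235 were called. Of these, 6 lost the call somewhere, all with differences under 0.3 in size: BAX (-0.17 with TPM), and CD47, CREBBP, PAX5, PSAT1 and TCF3, which lost it when some single libraries were left out (-0.15 to -0.20, 0.22 to 0.27, 0.19 to 0.24, -0.11 to -0.18 and -0.13 to -0.18). Of the genes not called, 9 gained a call somewhere (B2M, EP300, GAPDH, ITGB1, MKI67, MME, RELA, SPI1 and TRBC2) and 7, all near 0, changed sign. With TPM, protein-coding and median scaling, BTK went to 0.09, 0.06 and 0.08 and MAX to 0.05, 0.01 and 0.03. With single libraries left out, BRAF went to -0.03 and -0.04, BTK to 0.03, GPR183 to -0.09, NRAS to values from -0.04 to 0.12, PRDX1 to 0.00 and -0.04 and SOD1 to values from -0.01 to 0.13. The median of the glycolysis list changed sign without a filter, from -0.21 to 0.02, when genes near 0 entered. That of the redox list went from -0.06 to 0.03 with TPM and 0.02 with median scaling, and that of the myeloid markers from -1.24 to 0.05 without a filter. Values near 1 FPKM rest on few fragments, and small differences between the lines depend on the scaling.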

Other observations

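Within chromosomes, runs of 25 neighbouring protein-coding genes present in both lines were followed, 8001 windows in all, and the genes named here were chosen after their values were seen. The lowest median, -1.98, lay on chromosome 6 between RNF8 and C6orf226 (37353972 to 42890816 on GRCh38), where 21 of 25 genes were lower in Farage. This window holds CCND3, described above, and GLO1, a detoxifying enzyme of glycolysis by-products, at 75.1 FPKM in Farage and 473.7 in SU-DHL-8. It also holds BYSL, which serves the small ribosomal subunit, at 28.6 and 149.6 FPKM, and NFYA, a subunit of the factor that binds the Y box, at 8.86 and 48.3. CMTR1, in the same window, was at 16.0 and 13.6 FPKM. The highest median, 0.92, lay on chromosome 11 between CHORDC1 and TMEM123 (90201160 to 102470384), where 23 of 25 genes were higher in Farage. DNA copy number was not measured.

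The end of that chromosome 11 window reaches a run of 5 adjacent tested protein-coding genes that were all higher in Farage. BIRC3 was at 154, 171 and 170.4 FPKM there, its neighbour BIRC2, a second inhibitor of apoptosis, at 43.3, 43.7 and 42.3 against 8.11, 8.5 and 6.87 in SU-DHL-8, and TMEM123 at 332, 368 and 366 against 63, 67.8 and 58.5. Next come the metalloproteinase genes MMP7, at 81.3, 88.2 and 94.5 FPKM against 0, 0.0303 and 0.0583, and MMP20, a protease otherwise known from tooth enamel, at 22.1, 25.1 and 24.4 against 0, 0 and 0.0265. The flanking YAP1 on one side and MMP27, MMP8, MMP10, MMP1, MMP3 and MMP12 on the other had means under 0.1 FPKM in both lines.

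T cell receptor segments were listed in Farage beyond TRAC. Of 229 T cell receptor segments, 76 had a mean of at least 1 FPKM in Farage and 11 in SU-DHL-8, and their values summed to 882 to 1023 FPKM per Farage library and 31.7 to 63.6 per SU-DHL-8 library. Many of these segments are very short, which raises FPKM for few fragments, and the strand of counting is not stated.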
